A study of Mus musculus with 34 samples.

Results

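The chromosome 2 zinc finger cluster is a 3.2 Mb stretch of the mouse genome, from 174.8 to 178.0 Mb of chromosome 2 in GRCm38, the mm10 build named in the submitters' processing notes. Its members were all regions of the authors' count tables whose start lies in that stretch. They were chosen by position, and no measured value entered the choice. They number 203 of the 248336 regions in the list shared by both H3K9me3 series and the repeated H3K27ac libraries, and 229 of the 96988 regions in the separate list used for the H3K27ac libraries of separate lines. Members of the shared list had a median width of 476 bp and covered 121930 bp, and members of the other list had a median width of 1687 bp and covered 620207 bp. The stretch was followed in 13 windows, of 250 kb each except the last, numbered from its start.

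The cells were mouse embryonic stem cells of 4 genotypes, profiled by chromatin immunoprecipitation and sequencing (ChIP-seq) in 34 libraries that form 12 groups. The strain comparison used 3 separate C57BL/6J lines (B6, lines 4-1, 4-4 and 5-1) and 3 separate DBA/2J lines (D2, lines 2-9, 5-5 and 203) for each mark, labelled biological replicates. The congenic comparison used repeated libraries, labelled technical replicates, of 1 line per genotype: B6 line 5-1, D2 line 5-5, the B6-13D2 line QJ 6-1 and the D2-13B6 line XE 2-4. B6-13D2, or B6.D2-(rs30079041-rs51756099)/Bakr, carries a chromosome 13 segment from D2 in a B6 genome. D2-13B6 carries the B6 segment in a D2 genome, and the labels bound it by markers rs29224292 and rs13469455, while the series' design text gives rs51756099 as the second. H3K9me3 had 3 repeated libraries of B6 and of D2-13B6 and 2 of D2 and of B6-13D2, and H3K27ac had 3 of each. All cells grew in serum with LIF and the inhibitors PD0325901 and CHIR99021, and their chromatin was fixed with formaldehyde and cut with micrococcal nuclease. The H3K27ac antibody came from different makers in the separate lines and in the repeated libraries, so H3K27ac levels were compared only within a series. Each genotype of the repeated libraries is 1 line, so those tests compare lines. Their B6 and D2 lines also stand among the separate lines, so results of both series share them.

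Clusters such as this one hold many copies of genes for C2H2 zinc finger proteins, most of them with a KRAB domain. Each zinc finger is a short fold in which cysteines and histidines hold a zinc ion, and a row of fingers reads a DNA sequence, often within a transposon. The KRAB domain recruits TRIM28, which brings the methyltransferase SETDB1, and that enzyme deposits H3K9me3, a mark of silent chromatin. Zinc finger gene clusters are themselves known to carry H3K9me3 in embryonic stem cells. H3K27ac, the second mark measured, is found at active gene starts and enhancers.

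Counts within all regions ranged from 1487862 to 2559262 per H3K9me3 library and from 8735674 to 18272793 per H3K27ac library. The cluster held 1473 to 3237 counts per H3K9me3 library and 12794 to 49426 per H3K27ac library, so low regions are measured with less precision in H3K9me3. All 10 embryonic stem cell marker genes looked at, such as Pou5f1 and Nanog, had an H3K27ac region at their start in the repeated libraries, and 9 of 10 did in the separate lines, where Esrrb had none. Levels are given as CPM, counts scaled to the same library size. Esrrb was at 1.26 CPM or less in the repeated libraries, where Pou5f1 was at 166 to 229 CPM. The summed H3K27ac level of the stem cell list was 989 to 1082 CPM in B6, 1164 to 1217 in B6-13D2, 1196 to 1268 in D2 and 1238 to 1294 in D2-13B6, so that B6 was below the other lines, against 10.1 to 31.4 CPM for a list of 6 fibroblast genes, of which Col3a1 had no region. The fibroblast list was at 10.1 to 12.3 CPM in B6, 18.8 to 22.2 in B6-13D2, 27 to 31.4 in D2 and 14.0 to 29.1 in D2-13B6, and its part in the results below was not tested. A list of 6 endoderm, trophoblast and early mesoderm genes was at 13.2 to 18.6 CPM in B6, 14.5 to 22.0 in B6-13D2, 22.2 to 25.3 in D2 and 26.6 to 30.7 in D2-13B6, with no region at Gata4 or Sox17. Its part was not tested either. In it Cdx2 was at 3.89 to 5.66 CPM in B6, 6.67 to 8.76 in B6-13D2, 8.6 to 11.2 in D2 and 12.3 to 16.3 in D2-13B6. In the separate lines the fibroblast list was at 2.52 to 2.91 CPM in B6 and 1.99 to 2.59 CPM in D2, and the other list at 40.4 to 48.1 and 46.8 to 48.9 CPM. In each line of the H3K27ac repeated libraries, the counts of 1 pair of libraries differed by less than sampling noise. The pair was counted as 1 sample, so n = 2 there. In B6, B6-13D2 and D2 the other pairs were barely above that noise, at 1.01 to 1.03 chi-square per degree of freedom. D2-13B6 replicate 1 stood apart from its line's other libraries in both marks.

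The reference annotation lists 43 protein-coding genes, 31 unprocessed pseudogenes and 8 processed pseudogenes in the cluster, and 36 of the protein-coding genes encode at least 3 C2H2 fingers by their GENCODE coding sequence. Of the 43 protein-coding genes, 28 matched a RefSeq protein by symbol, and 24 of those proteins held at least 3 fingers. The reference sequence of the stretch holds 614 matches to the C2H2 pattern. Only 6 of them lie in shared-list regions and 53 in regions of the other list, so the regions measured here are mostly not the finger-coding exons. A member held a match in 2 of 203 cases (0.985%, against 0.543% of all shared-list regions) and in 11 of 229 cases (4.80%, against 1.62% of all regions of the other list).

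The cluster is built of near-identical copies. Of its gap-free 75-base sequences, the length of a read, 79.4% occur again elsewhere in the reference, and 77.7% occur again within the cluster. The share was 26.4% in window 1, at least 87.8% in windows 3 to 9 and 57.7% in window 11. How reads that fit several copies were counted is not given in the sources used here, so a count in windows 3 to 9 may belong to another copy. Among shared-list members, 173 of 203 (85.2%) aligned to another member over at least 100 bases at 80% identity or more.

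The sequences that the results turn on are shown here, read from the GRCm38 reference, which is a B6 genome. The first pair comes from the region whose H3K27ac fell with the D2 segment in both backgrounds and from a copy of it. The first lies near Gm14393 at chr2:175053972-175054211 (plus strand) and the second near Gm14401 at chr2:177094134-177094373 (minus strand), both between genes. Capitals mark the 13 bases that differ between them over these 240 bases.
Gm14393 copy: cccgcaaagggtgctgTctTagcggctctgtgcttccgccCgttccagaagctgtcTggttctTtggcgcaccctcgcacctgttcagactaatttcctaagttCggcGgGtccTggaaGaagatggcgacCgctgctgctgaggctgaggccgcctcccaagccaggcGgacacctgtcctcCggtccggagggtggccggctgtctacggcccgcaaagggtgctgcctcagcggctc
Gm14401 copy: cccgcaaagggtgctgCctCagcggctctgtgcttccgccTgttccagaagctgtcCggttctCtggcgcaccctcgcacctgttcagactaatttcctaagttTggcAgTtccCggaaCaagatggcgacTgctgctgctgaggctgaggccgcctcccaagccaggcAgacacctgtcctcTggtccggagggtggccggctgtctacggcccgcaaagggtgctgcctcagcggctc
The next sequence is part of the coding exon of Gm14412 at chr2:177314634-177314864 (minus strand), within the only one of the 5 highest H3K9me3 members that codes for zinc fingers. Capitals mark the cysteine and histidine codons of 3 fingers.
Gm14412 coding exon: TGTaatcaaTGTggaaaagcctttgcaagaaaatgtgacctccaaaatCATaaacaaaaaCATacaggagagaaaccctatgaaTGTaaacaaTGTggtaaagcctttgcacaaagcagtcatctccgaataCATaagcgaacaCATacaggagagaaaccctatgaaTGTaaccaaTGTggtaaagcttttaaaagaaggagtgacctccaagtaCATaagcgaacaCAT
The last pair is drawn from the member with the largest H3K9me3 difference between separate lines, at chr2:177523154-177523353, and from the member with the largest H3K27ac difference between backgrounds, at chr2:177329871-177330070 (both plus strand, both between genes). Capitals mark bases outside the repeats masked in the reference, and the first is 66.5% G and C while the second is 51.0%.
H3K9me3 region with the largest strain difference: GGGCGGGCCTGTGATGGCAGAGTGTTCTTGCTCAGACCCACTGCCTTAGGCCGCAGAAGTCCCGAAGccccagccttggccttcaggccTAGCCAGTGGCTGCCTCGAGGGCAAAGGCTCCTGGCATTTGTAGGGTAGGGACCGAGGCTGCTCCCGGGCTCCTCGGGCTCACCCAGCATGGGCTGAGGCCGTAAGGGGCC
H3K27ac region with the largest background difference: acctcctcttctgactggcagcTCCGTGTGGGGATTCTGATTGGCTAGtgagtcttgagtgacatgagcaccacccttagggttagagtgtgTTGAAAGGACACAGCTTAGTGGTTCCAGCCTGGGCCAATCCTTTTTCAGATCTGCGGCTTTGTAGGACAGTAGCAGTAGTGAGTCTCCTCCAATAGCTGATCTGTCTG

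The first question was how the cluster differs between the strains. Between separate lines, both marks were lower in D2 than in B6 over 1 block of the cluster, window 11 (177.3 to 177.55 Mb), and elsewhere members were called in both directions. With the edgeR quasi-likelihood test and an adjusted p threshold of 0.05, 29 of 71 members tested for H3K9me3 were called, 8 higher and 21 lower in D2, while 34.6% of all regions tested were called. For H3K27ac, 89 of 227 members were called, 22 higher and 67 lower, while 49.3% of all regions were called. That is 40.8% and 39.2% of the members tested, shares near the one over all regions for H3K9me3 and below it for H3K27ac. The median log2 fold change of members was -0.30 for H3K9me3 and -0.09 for H3K27ac, against 0.00 and -0.01 over all regions tested. The other 132 shared-list members had too few H3K9me3 counts in the separate lines to be tested.

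The same direction was seen when the repeated libraries were compared by background, D2 and D2-13B6 against B6 and B6-13D2. In H3K9me3, 51 of 120 members were called, 2 higher and 49 lower in the D2 background, while 26.0% of all regions were called, and 14.9% of all regions were called lower. In H3K27ac, 99 of 194 members were called, 24 higher and 75 lower, while 38.1% of all regions were called. That is 42.5% and 51.0% of the members tested. The median log2 fold change over members was -0.59 for H3K9me3 and -0.32 for H3K27ac, against 0.03 and 0.00 over all regions tested. Of the 21 members whose H3K9me3 was lower in the separate D2 lines, 12 were also lower in the D2 background and 9 were not called. Of the 8 whose H3K9me3 was higher, none was higher in the D2 background and 2 were lower.

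Windows were tested on the sum of their counts. In the separate lines, H3K9me3 was called in 2 of 10 windows tested and H3K27ac in 2 of 13, while 30.7% and 64.6% of windows over the whole genome were called. By background, H3K9me3 was called in 5 of 11 windows and H3K27ac in 4 of 11, against 41.6% and 61.8% of all windows. H3K27ac windows called in the separate lines were 1 higher and 1 lower in D2, and with library totals as scaling 0 higher and 2 lower. By background they were 1 higher and 3 lower, and with library totals 1 higher and 5 lower. Windows 3 and 7 held no shared-list region. Levels below are summed CPM of a window's members, as mean ± SD over 3 separate lines, over 2 or 3 repeated H3K9me3 libraries and over 2 samples of repeated H3K27ac libraries.

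**Figure D1:**
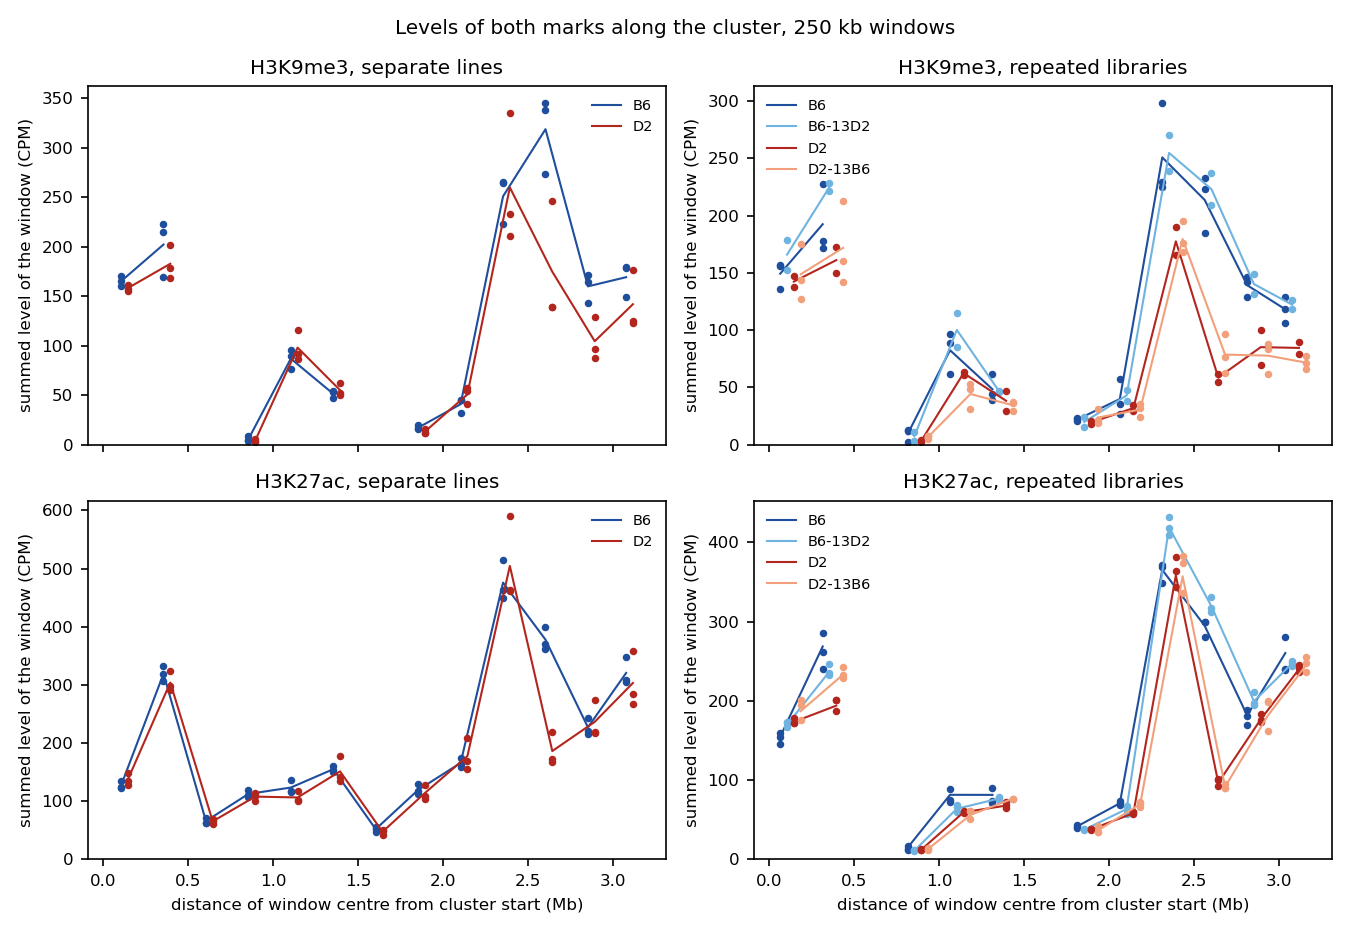
Summed level of each 250 kb window (CPM) against the distance of its centre from the cluster start (Mb), for both marks and both series; points are libraries and lines join the means. In window 11 (177.3 to 177.55 Mb) all D2 and D2-13B6 points lie below all B6 and B6-13D2 points in every panel.

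The first windows, which hold Gm14444, Gm14393 and Gm14399, carried both marks. In window 1, H3K9me3 was 165 ± 4.98 CPM in the separate B6 lines and 158 ± 3.20 in the D2 lines. Among repeated libraries it was 149 ± 11.8 in B6, 166 ± 18.6 in B6-13D2, 142 ± 6.65 in D2 and 149 ± 24.4 in D2-13B6. None of these H3K9me3 contrasts was called, and the groups overlapped in the repeated libraries. H3K27ac in window 1 was 126 ± 6.46 CPM in the separate B6 lines and 137 ± 11.1 in the D2 lines, which overlapped. Window fold changes are scaled over all windows and CPM over all regions, so for this mark and series they lie above the ratio of the CPM means by 0.08 (log2, median over the windows). The fit gave 0.19 ± 0.06 on the log2 scale (SE, adjusted p = 0.00858) where the ratio of the means was 0.11. The call was lost with library totals as scaling (0.10, adjusted p = 0.138) and without D2 replicate 3 (0.12, adjusted p = 0.0820). In the repeated libraries, H3K27ac was 155 ± 7.06 in B6, 169.7 ± 4.72 in B6-13D2, 173 ± 2.62 in D2 and 187 ± 15.5 in D2-13B6, and rose by 0.18 ± 0.05 with the D2 background (adjusted p = 0.00342).

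Window 2 held more of both marks. Its H3K9me3 was 202 ± 29.0 CPM in the separate B6 lines and 183 ± 17.0 in the D2 lines. For the repeated libraries it was 192 ± 30.6 in B6, 225 ± 4.41 in B6-13D2, 161 ± 16.2 in D2 and 172 ± 37.1 in D2-13B6, and no H3K9me3 contrast was called. Its H3K27ac in the separate lines was 319 ± 13.7 CPM in B6 and 304 ± 17.2 in D2, not called: the log2 ratio of these means was -0.07 and the fitted log2 fold change 0.01 (adjusted p = 0.883). In repeated libraries H3K27ac was 268 ± 24.6 in B6, 237 ± 5.93 in B6-13D2, 194 ± 9.87 in D2 and 233 ± 6.16 in D2-13B6. That was a fall by 0.22 ± 0.05 with the D2 background (adjusted p = 0.000805) and by 0.21 ± 0.07 with the D2 segment among B6-background lines (adjusted p = 0.0227). Between the D2-background lines the segment value was -0.18 ± 0.07 (adjusted p = 0.0597), not called. Of the 26 members tested, 1 was called higher and 2 lower with the segment in the B6 background. Those lower include chr2:175052869-175054513, described below, at -2.58 (log2). The segment call was lost without either B6-13D2 sample or without B6 replicate 3 (adjusted p = 0.0511 to 0.272).

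Windows 3 to 9 (175.3 to 177.05 Mb) are the most duplicated part. In the separate lines, H3K27ac means ranged from 47.0 CPM (D2, window 7) to 177 CPM (D2, window 9), and no window was called. H3K9me3 means in the separate lines ranged from 3.91 CPM (D2, window 4) to 97.9 CPM (D2, window 5) over the 5 of these windows with a shared-list region. Windows 5, 6, 8 and 9 were tested there and not called, and window 4 had too few counts to be tested. By background, H3K9me3 fell in window 5 by 0.78 ± 0.15 (adjusted p = 0.000554), from 82.4 ± 18.0 CPM in B6 and 100.1 ± 20.6 in B6-13D2 to 62.4 ± 1.67 in D2 and 44.1 ± 11.4 in D2-13B6. H3K27ac in window 5 was 81.2 ± 10.9 CPM in B6, 63.6 ± 5.38 in B6-13D2, 59.1 ± 1.52 in D2 and 55.7 ± 6.87 in D2-13B6. It was thus highest in B6, and the other 3 lines were close. It fell by 0.29 ± 0.07 with the D2 background (adjusted p = 0.00232) and by 0.37 ± 0.10 with the segment in the B6 background (adjusted p = 0.0106). The segment contrast differed between the backgrounds by -0.53 ± 0.15 (adjusted p = 0.0143), the only one of 11 H3K27ac windows in the cluster with a called difference, while 24.6% of all windows had one. Without B6-13D2 replicate 2 or B6 replicate 3, neither that difference nor the segment fall in window 5 was called (adjusted p = 0.0963 to 0.164). The difference was also not called without D2 replicates 1 and 3 (adjusted p = 0.0628). In windows 6, 8 and 9, H3K9me3 was 34.3 to 48.3, 19.3 to 23.6 and 30.6 to 42.9 CPM over the means of the 4 repeated lines, with no call.

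Window 10 (177.05 to 177.3 Mb), with Gm14401, Gm14410 and Gm14409, held the highest H3K27ac of all windows. In the separate lines H3K27ac was 476 ± 34.6 CPM in B6 and 504 ± 73.7 in D2, where line 203 stood at 589.6 CPM and the other D2 lines at 462 CPM each. Over the repeated libraries it was 365 ± 9.02 in B6, 419 ± 1.65 in B6-13D2, 358 ± 21.0 in D2 and 357 ± 30.5 in D2-13B6, with no contrast called. H3K9me3 was 251 ± 24.1 CPM in the separate B6 lines and 259.8 ± 66.2 in the D2 lines, which overlapped. With the D2 background H3K9me3 fell by 0.49 ± 0.10 (adjusted p = 0.00111), from 251 ± 41.3 in B6 and 255 ± 22.6 in B6-13D2 to 178 ± 17.1 in D2 and 179.5 ± 14.1 in D2-13B6.

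Window 11 differed most. Reads of all lines were mapped to mm10, a B6 genome, and the part of missing or differing D2 sequence was not tested. Its H3K9me3 was 338, 273 and 345 CPM in the 3 separate B6 lines, and 139.0, 139.1 and 246 CPM in the D2 lines, the last being line 203. The groups did not overlap, and H3K9me3 was lower in D2 by a log2 fold change of -0.84 ± 0.16 (adjusted p = 8.34e-05). Among the repeated lines H3K9me3 was 214 ± 25.3 CPM in B6 and 223 ± 19.6 in B6-13D2, against 58.5 ± 4.89 in D2 and 78.6 ± 16.9 in D2-13B6, a background difference of -1.67 ± 0.12 (adjusted p = 7.2e-09). H3K27ac was 400.1, 362 and 371 CPM in the separate B6 lines and 172, 167 and 218 CPM in the D2 lines, a difference of -0.94 ± 0.08 (adjusted p = 1.3e-08). In the repeated libraries H3K27ac was 295 ± 6.42 CPM in B6 and 319 ± 2.78 in B6-13D2, against 96.4 ± 6.10 in D2 and 91.2 ± 1.21 in D2-13B6, a difference of -1.68 ± 0.04 (adjusted p = 8.91e-15). Neither mark was called in this window with the chromosome 13 segment: the H3K9me3 values were 0.08 ± 0.15 between the B6-background lines and -0.40 ± 0.19 between the D2-background lines, and the H3K27ac values 0.08 ± 0.06 and 0.17 ± 0.07.

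Next to it, the marks parted. In window 12, which holds Gm14406 and Gm14322, H3K9me3 was 159.9 ± 14.5 CPM in the separate B6 lines and 104 ± 22.0 in the D2 lines, a fall by 0.59 ± 0.13 (adjusted p = 0.000637). It was 139 ± 8.95 in B6, 140.2 ± 12.2 in B6-13D2, 85.1 ± 21.6 in D2 and 77.7 ± 14.0 in D2-13B6 of the repeated libraries, a fall by 0.77 ± 0.13 with the background (adjusted p = 0.000149). H3K27ac in window 12 was 227 ± 14.8 CPM in the separate B6 lines and 236 ± 32.0 in the D2 lines, and 176 to 199.3 CPM over the means of the repeated lines, with no contrast called. In window 13, with Gm14325 and Gm14326, H3K9me3 was 169 ± 17.0 CPM in the separate B6 lines and 142 ± 30.4 in the D2 lines, not called. By background it fell by 0.61 ± 0.10 (adjusted p = 0.000166), from 118 ± 11.4 in B6 and 122 ± 5.96 in B6-13D2 to 84.4 ± 6.89 in D2 and 71.6 ± 5.41 in D2-13B6. H3K27ac in window 13 was 320.3 ± 23.8 and 303 ± 48.1 CPM in the separate lines, and 239.7 to 260.2 CPM over the means of the repeated lines, with no call.

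**Figure D2:**
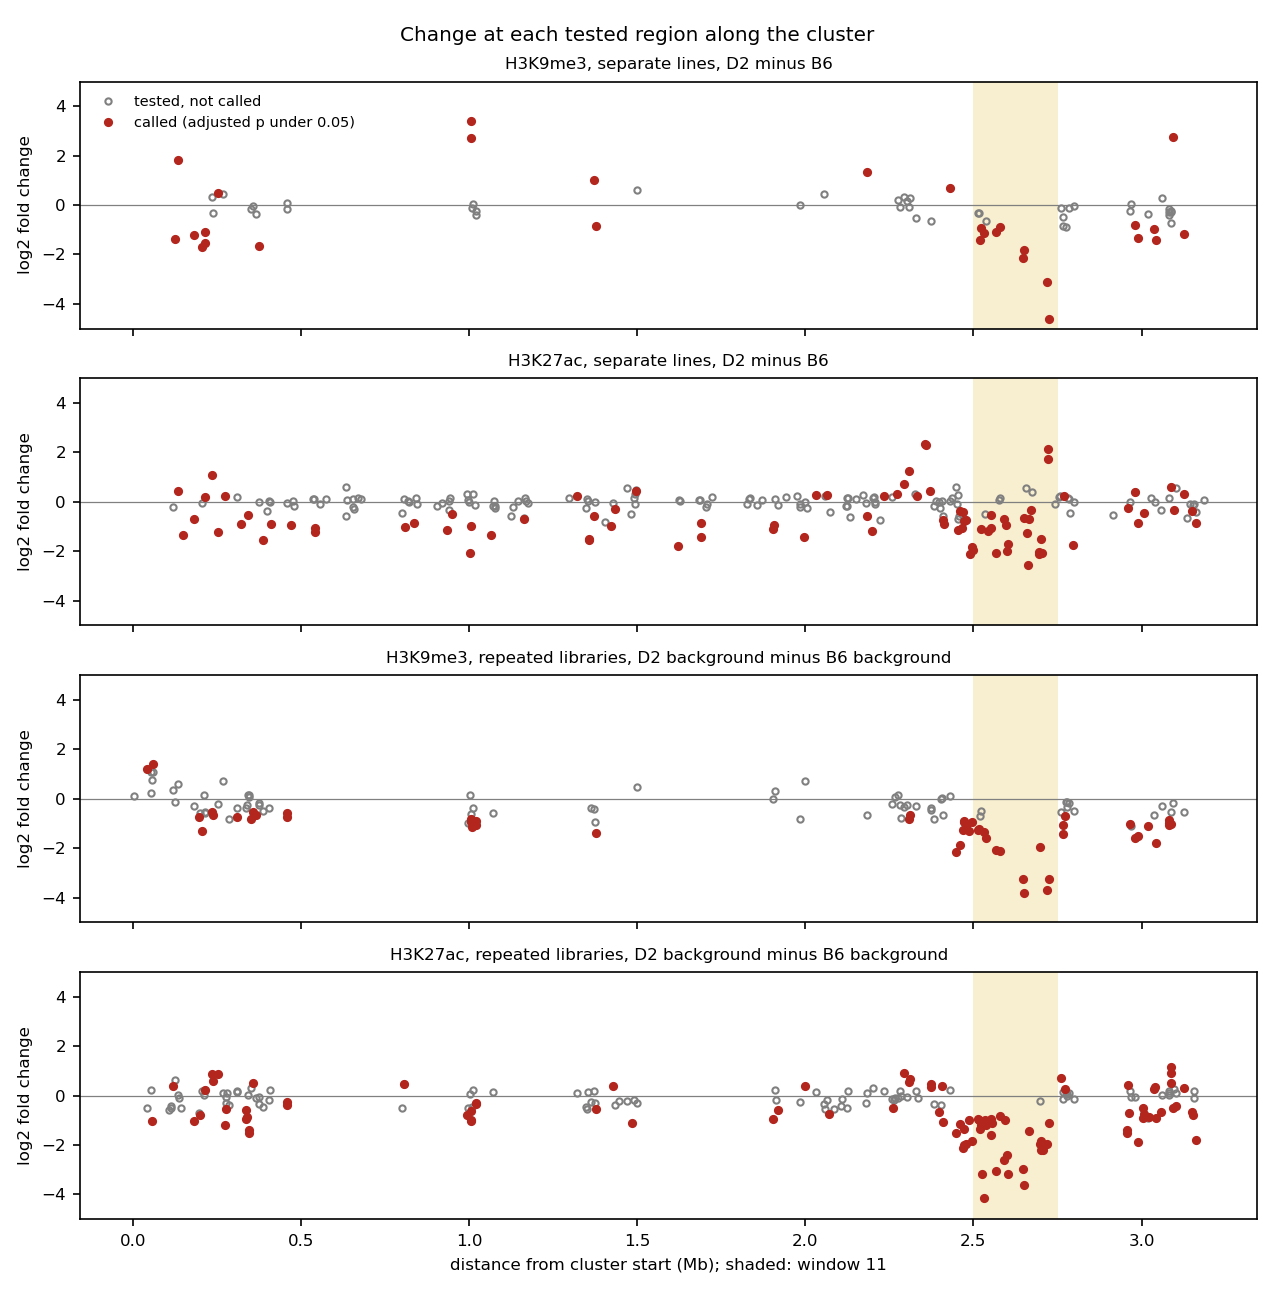
Log2 fold change of each tested member (y axis) against its distance from the cluster start (x axis, Mb), for the strain contrast in separate lines and the background contrast in repeated libraries; filled points are called and window 11 is shaded. In the shaded window 9 of 12, 18 of 26, 11 of 13 and 26 of 27 tested members were called lower in D2, from the top panel down.

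The difference in window 11 was spread over its members. H3K9me3 was lower in the D2 lines at 9 of the 12 members tested there and higher at none, and in the other windows it was lower at 12 and higher at 8 of 59. H3K27ac in separate lines was lower at 18 of 26 and higher at 2, and in the other windows lower at 49 and higher at 20 of 201. Over all regions tested, 17.4% were called lower in H3K9me3 and 25.0% in H3K27ac, so outside window 11 the H3K27ac share was near that of all regions. By background, H3K9me3 was lower at 11 of 13 members of window 11 and at 38 of 107 elsewhere, and H3K27ac at 26 of 27 and at 49 of 167. Of all regions, 14.9% were called lower in H3K9me3 in that contrast and 17.8% in H3K27ac. Both shares outside window 11 were thus above those of all regions by background. Among the members of window 11 with under 50% of their 75-base sequences repeated, H3K9me3 was lower at 8 of 10 and H3K27ac at 14 of 14 by background. In the separate lines H3K9me3 was lower at 7 of 9 of them, but H3K27ac was lower at 3 and higher at 2 of 5. The median log2 fold change of window 11 members by background was -1.95 for H3K9me3 and -1.59 for H3K27ac, against -0.54 and -0.18 in the other windows.

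The members whose H3K9me3 fell most between strains lay in the second part of that window, near Gm14414 and Gm14403. At chr2:177522994-177523514, between genes and with no repeated 75-base sequence, H3K9me3 was 15.6, 12.7 and 9.45 CPM in the separate B6 lines and 0, 0.383 and 0.926 CPM in the D2 lines. All D2 libraries were at or under 3 counts, so H3K9me3 was at least 9.31-fold lower in D2 (3 counts per library as the floor, adjusted p = 3.63e-09). The repeated libraries showed 14.1, 12.6 and 14.1 CPM in B6 and 13.2 and 15.4 in B6-13D2, against 0.612 and 2.10 in D2 and 1.24, 0.515 and 2.40 in D2-13B6. At chr2:177518875-177519353, also between genes, H3K9me3 was 25.4, 28.7 and 21.4 CPM in B6 lines and 2.53, 1.92 and 4.17 in D2 lines, a log2 fold change of -3.13 ± 0.31 (adjusted p = 6.74e-11). There the groups lay far apart, and by background the value was -3.71 ± 0.34.

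A pair of neighbouring members between genes showed the fall in both marks. At chr2:177448368-177448662, H3K9me3 was 16.9, 11.3 and 17.0 CPM in separate B6 lines and 3.03, 2.68 and 4.63 in D2 lines (-2.13 ± 0.33, adjusted p = 1.87e-06). Its H3K27ac in the repeated libraries was 11.3, 10.6 and 12.1 CPM in B6 and 9.72, 9.79 and 10.7 in B6-13D2, and between 0.882 and 1.57 CPM in all D2 and D2-13B6 libraries (-2.99 ± 0.17 by background). At chr2:177449090-177449463, H3K9me3 fell by 1.82 ± 0.29 in the separate D2 lines and was at least 7.17-fold lower with the D2 background, where all D2 and D2-13B6 libraries were at or under 3 counts. H3K27ac there fell by 3.63 ± 0.18 with the background. The largest H3K27ac fall was at chr2:177329272-177330671, 4965 bp from Gm14412. Its H3K27ac was 19.8, 21.5 and 25.4 CPM in B6, 25.7, 23.9 and 23.9 in B6-13D2, 1.63, 0.895 and 1.09 in D2, and 1.37, 1.27 and 1.32 in D2-13B6, a background difference of -4.13 ± 0.16 (adjusted p = 1.08e-25). Both D2-background lines were low there whichever segment they carried, and the part of D2 sequence differences from the B6 reference was not tested.

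Among the wider regions of the separate H3K27ac lines, the largest falls were at low levels. At chr2:177461548-177462269, 701 bp from the processed pseudogene Gm14414, H3K27ac was 2.40, 2.77 and 2.59 CPM in B6 and 0.449, 0.441 and 0.403 in D2 (-2.56 ± 0.32, adjusted p = 1.55e-09). At chr2:177289640-177291508, in the end of window 10, it was 5.70, 6.10 and 6.07 CPM in B6 and 1.48, 0.661 and 2.02 in D2 (-2.11 ± 0.21). At chr2:177493136-177493831 it fell by 2.12 ± 0.34. The largest rises were of regions near the limit of detection in B6: chr2:177156755-177157124 was at 0.456, 0.189 and 0.253 CPM in B6 and 1.41, 1.54 and 1.73 in D2 (2.33 ± 0.41), and chr2:177157778-177158209 (2.32 ± 0.43) and chr2:177521596-177522147 (2.15 ± 0.39) were alike in level.

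H3K27ac at the starts of the zinc finger genes followed the same block. The GENCODE rule for zinc finger genes was added after seeing the files, because many genes had no matched RefSeq protein. All 36 genes with at least 3 fingers by that rule had a region of the separate lines within 1 kb of their start, and 11 of the 36 were called, 7 lower and 4 higher in D2, while 49.3% of all H3K27ac regions were called in that contrast. All 4 genes that start in window 11 fell in D2. Gm14412 was at 146, 133 and 136 CPM in B6 and 59.5, 55.8 and 77.5 CPM in D2 (-1.10 ± 0.08, adjusted p = 2.99e-18). Gm14403 was at 27.7, 27.3 and 27.8 CPM in B6 and 9.63, 8.93 and 11.1 CPM in D2 (-1.48 ± 0.09, adjusted p = 1.17e-19). In both genes the lowest B6 line stood well above the highest D2 line. Gm14418 went from 32.4 ± 1.31 to 16.8 ± 2.95 CPM (-0.94 ± 0.09), and Zfp970 from 30.3 ± 1.5 to 18.6 ± 2.10 CPM (-0.71 ± 0.09). These genes all encode proteins with rows of C2H2 fingers, 8 in Gm14418, 9 in Gm14403, 14 in Zfp970 and 15 in Gm14412 by the same count.

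Outside window 11, 4 of 32 gene starts rose and 3 fell, by at most 0.53 on the log2 scale. These values cover the whole region at a start, and those of the 4 that rose were 11924 (Gm14444), 24205 (Gm14393), 25526 (Gm14401) and 22298 bp (Gm14406) wide. Regions at the starts that fell, in window 11 and outside it, were 17788 (Gm14412), 14341 (Gm14399), 10207 (Gm14322) and otherwise 5213 to 6572 bp wide. Gm14401 (161 ± 12.7 to 200.2 ± 31.9 CPM, 0.31 ± 0.07), Gm14406 (116 ± 11.1 to 137 ± 16.7 CPM, 0.25 ± 0.07), Gm14393 (110.2 ± 4.53 to 130.4 ± 9.86 CPM, 0.24 ± 0.07) and Gm14444 (77.3 ± 5.85 to 88.4 ± 8.76 CPM, 0.19 ± 0.07) were higher in D2. Gm14399 fell by 0.53 ± 0.07, Gm14409 by 0.40 ± 0.08 and Gm14322, where the lines of the strains overlapped, by 0.24 ± 0.08. Gm14409, at 33.8 ± 3.19 CPM in B6 and 25.7 ± 2.22 in D2, starts at the end of window 10, and is the nearest of these genes before window 11. By the RefSeq rule for zinc finger genes, which leaves out the genes without a matched protein, 2 of 24 rose and 2 fell.

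**Figure D3:**
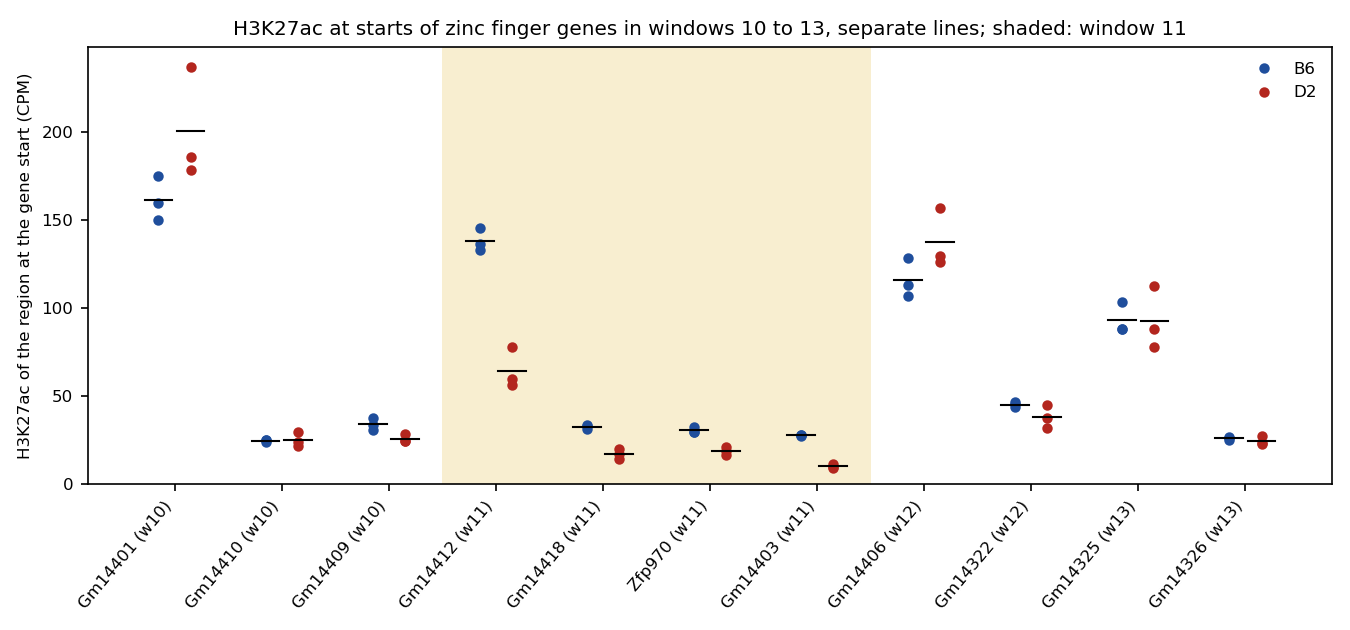
H3K27ac (CPM) of the region at the start of each of 11 zinc finger genes in windows 10 to 13, separate lines; points are lines, bars are means, and w10 to w13 name the window. Log2 fold changes of the 4 genes of window 11, shaded, ran from -1.48 to -0.71, and those of the other 7 from -0.40 to 0.31.

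In the repeated libraries, whose regions are narrower, the 4 starts in window 11 also fell, and no other start was called in the same direction as in the separate lines. Of 22 genes with a shared-list region within 1 kb, the 4 in window 11 fell with the D2 background, and of the other 18, 5 rose and none fell, while 38.1% of all regions were called by background. At Gm14412 H3K27ac was 22.5, 23.2 and 22.9 CPM in B6, 30.8, 28.5 and 31.2 in B6-13D2, 2.96, 2.13 and 2.83 in D2, and 3.14, 2.23 and 2.94 in D2-13B6, a difference of -3.19 ± 0.13 (adjusted p = 3.03e-24). Gm14418 fell by 2.40 ± 0.15, Gm14403 by 1.95 ± 0.16 and Zfp970 by 1.42 ± 0.14. The 5 starts that rose were those of Gm14322, 2210418O10Rik, Gm14295, Gm14410 and Gm14325, by 0.33 to 0.42. Gm14322 thus fell in the separate lines and rose by background, over regions of different width. The 4 starts outside window 11 that were higher in the separate D2 lines were not called by background, at 0.12 (Gm14393), 0.05 (Gm14406), 0.02 (Gm14444) and -0.10 (Gm14401). Gm14399, lower in the separate D2 lines, was at 0.04 by background and not called, and Gm14409 had no shared-list region there. H3K9me3 at the starts was mostly too low to test. Of 13 RefSeq-rule genes with a member within 1 kb, 1 had one tested by strain and 7 by background, and none was called. Of 22 GENCODE-rule genes, 3 and 11 had one tested, and 1 was lower in each contrast, while 34.6% and 26.0% of all regions were called. Of the 24 RefSeq-rule genes only 1 had a member over its last annotated exon. That exon need not hold the fingers: in Gm14391, with 16 fingers, it spans only chr2:175191065-175191171.

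The members with the most H3K9me3 lay between genes, save 1. At chr2:177108894-177110626 in window 10, H3K9me3 was 76.2, 62.1 and 51.7 CPM in the separate B6 lines and 58.6, 73.2 and 96.8 CPM in the D2 lines, which overlapped. At chr2:177377061-177378373 in window 11 it was 81.4, 54.7 and 57.3 CPM in B6 lines and 24.8, 28 and 50.5 in D2 lines (-0.91 ± 0.20, adjusted p = 0.000318). At chr2:177779238-177780392 in window 12 it was 78.8, 57.4 and 51.0 CPM in B6 lines and 28.3, 31.4 and 46.8 in D2 lines (-0.81 ± 0.19, adjusted p = 0.000556). In both falls the highest D2 line was line 203. The finger-coding exon of Gm14412, chr2:177314521-177314917, was at 57.3, 48.7 and 56.7 CPM in B6 lines and 37.4, 29.9 and 63.9 in D2 lines, which overlapped (-0.32 ± 0.19, adjusted p = 0.209). In the repeated libraries that exon was at 22.6 ± 5.06 CPM in B6 and 27.6 ± 1.84 in B6-13D2, against 9.88 ± 0.13 in D2 and 11 ± 2.04 in D2-13B6, a fall by 1.26 ± 0.20 with the D2 background (adjusted p = 4.21e-08).

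H3K9me3 marks silent and H3K27ac active chromatin, so their directions were set side by side. Of the 49 members whose H3K9me3 fell with the D2 background, 28 also fell in H3K27ac, 7 rose and 14 were not called, while 17.8% of all regions and 75 of 194 members were called lower in H3K27ac. Window 11, picked after its values were seen, held 11 of the 49, and all 11 fell in H3K27ac. Of all window 11 members tested for H3K27ac, 26 of 27 fell. In the other windows 17 of the 38 fell, against 49 of 167 members tested there for H3K27ac. At chr2:177108894-177110626, the highest H3K9me3 member, H3K9me3 fell by 0.66 ± 0.14 while H3K27ac rose by 0.68 ± 0.10, with 20.3, 19.9 and 20.7 CPM in B6, 22.6, 23.8 and 22.0 in B6-13D2, 41.0, 35.9 and 36.2 in D2, and 23.4, 34.2 and 33.6 in D2-13B6. Replicate 1 of D2-13B6 was near the B6-13D2 libraries there. At chr2:175034496-175035624, near Gm14445, H3K9me3 fell by 0.54 ± 0.17 and H3K27ac rose by 0.88 ± 0.12. At chr2:177887710-177888229, near Gm14323, H3K27ac was 7.05, 7.15 and 7.09 CPM in B6, 6.77, 7.27 and 4.77 in B6-13D2, 14.5, 13.2 and 14.9 in D2, and 15.4, 12.3 and 13.9 in D2-13B6 (1.14 ± 0.12, adjusted p = 1.08e-10). The same member had less H3K9me3 in the D2 background (-1.04 ± 0.25, adjusted p = 0.000783). The neighbour at chr2:177888345-177888524 also rose in H3K27ac, by 0.91 ± 0.16, and had too few H3K9me3 counts to be tested in the repeated libraries. The only H3K9me3 rises by background were at chr2:174858429-174858819, in an intron of Gm14616 (1.42 ± 0.52, adjusted p = 0.0331), and chr2:174839705-174840186, in an intron of Gm14617 (1.20 ± 0.42, adjusted p = 0.0237). Both were at 8.08 CPM or less in every repeated library, and their calls were lost in 7 of 12 and 8 of 15 alternatives.

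**Figure D4:**
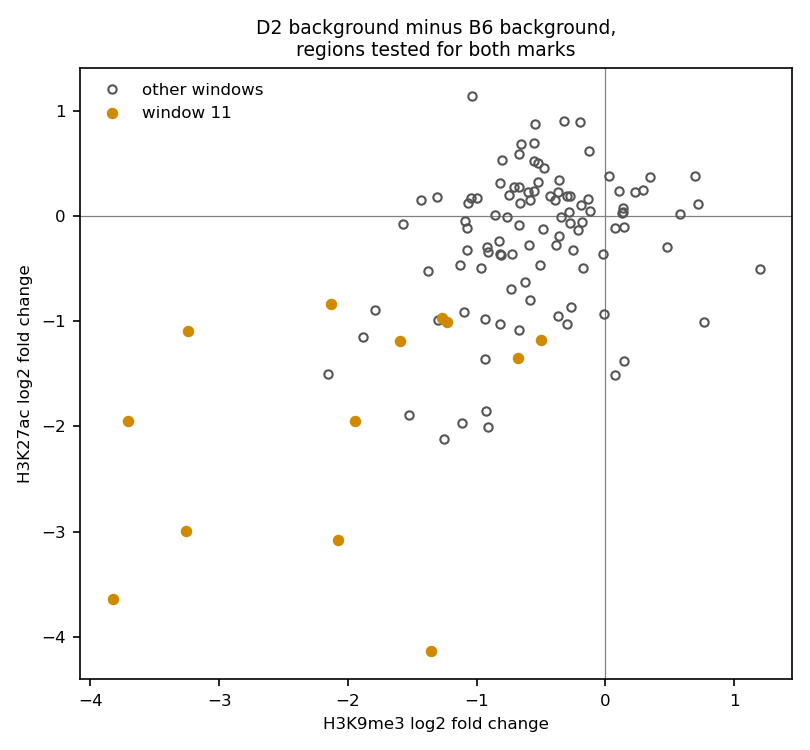
Log2 fold change by background (D2 and D2-13B6 minus B6 and B6-13D2) of H3K9me3 (x axis) against H3K27ac (y axis) for the members tested for both marks. All 13 members of window 11 lie below 0 on both axes, while the 103 of other windows lie on both sides of 0 in H3K27ac.

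The second question was whether the chromosome 13 segment is followed by marks on chromosome 2. Few members were called. In the B6 background (B6-13D2 minus B6), 2 of 120 members were called for H3K9me3, while 1.68% of all regions were called, and 11 of 194 for H3K27ac, against 13.0%. In the D2 background (D2 minus D2-13B6), 3 of 120 were called for H3K9me3, against 2.17%, and 3 of 194 for H3K27ac, against 6.67%. No H3K9me3 window was called in the B6 background, where 0.137% of all windows were, or in the D2 background, where 2.14% were. In edgeR the unadjusted p was under 0.05 in 0 and 2 of these 11 windows. H3K27ac was called in windows 2 and 5 in the B6 background, described above (32.9% of all windows), and in none in the D2 background (29.6% of all windows, and 3 of 11 at an unadjusted p under 0.05 in edgeR). Member counts for H3K27ac in the B6 background were 6 without either B6 sample, 7 without B6-13D2 replicates 1 and 3, and 27 and 35 without D2-13B6 replicate 1 or replicates 2 and 3. No window was called for H3K27ac in the B6 background without B6 replicate 3 or without B6-13D2 replicate 2. The H3K27ac members called in the B6 background were 2 higher and 9 lower, and with library totals as scaling 1 higher and 19 lower. In the D2 background they were 1 higher and 2 lower, and with library totals 4 higher and 3 lower. For H3K9me3 no member had a called difference between the 2 segment contrasts (0.364% of all regions, 5 of 120 members at an unadjusted p under 0.05 in edgeR and 0 called by DESeq2), and no window had one (0.0293% of all windows, and 0 of 11 at an unadjusted p under 0.05). For H3K27ac 1 of 194 members had one, the member in Gm14323 described next, against 5.30% of all regions. In all, 13 distinct members were called in at least 1 segment contrast of either mark, and none of them lies in window 11.

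The member whose H3K9me3 followed the segment most clearly lies in an exon of the processed pseudogene Gm14323, at chr2:177893032-177893458. H3K9me3 was 2.51, 2.62 and 0 CPM in B6 and 1.86, 1.03 and 0.960 CPM in D2-13B6, the lines with the B6 segment. It was 8.93 and 10.3 CPM in B6-13D2 and 12.2 and 8.40 CPM in D2, the lines with the D2 segment. The groups did not overlap, and H3K9me3 rose with the D2 segment by 2.45 ± 0.47 between the B6-background lines (adjusted p = 8.44e-05) and was at least 6.38-fold higher between the D2-background lines, since all D2-13B6 libraries were at or under 3 counts (adjusted p = 1.16e-05). The separate lines differed the same way, with 1.30, 2.67 and 2.52 CPM in B6 and 13.1, 15.3 and 16.7 CPM in D2 (2.77 ± 0.38, adjusted p = 1.3e-07). H3K27ac ran opposite in the B6 background, from 8.10, 9.23 and 10.4 CPM in B6 to 3.05, 2.33 and 1.89 CPM in B6-13D2 (-1.95 ± 0.22, adjusted p = 4.04e-09). In the D2 background H3K27ac was 4.61, 3.08 and 4.56 CPM in D2-13B6 and 2.14, 2.91 and 2.39 CPM in D2 (-0.75 ± 0.25, adjusted p = 0.0550), which missed the threshold. The fall was larger in the B6 background, by -1.20 ± 0.33 on the log2 scale (adjusted p = 0.0236), a call that 7 of 15 alternatives lost.

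**Figure D5:**
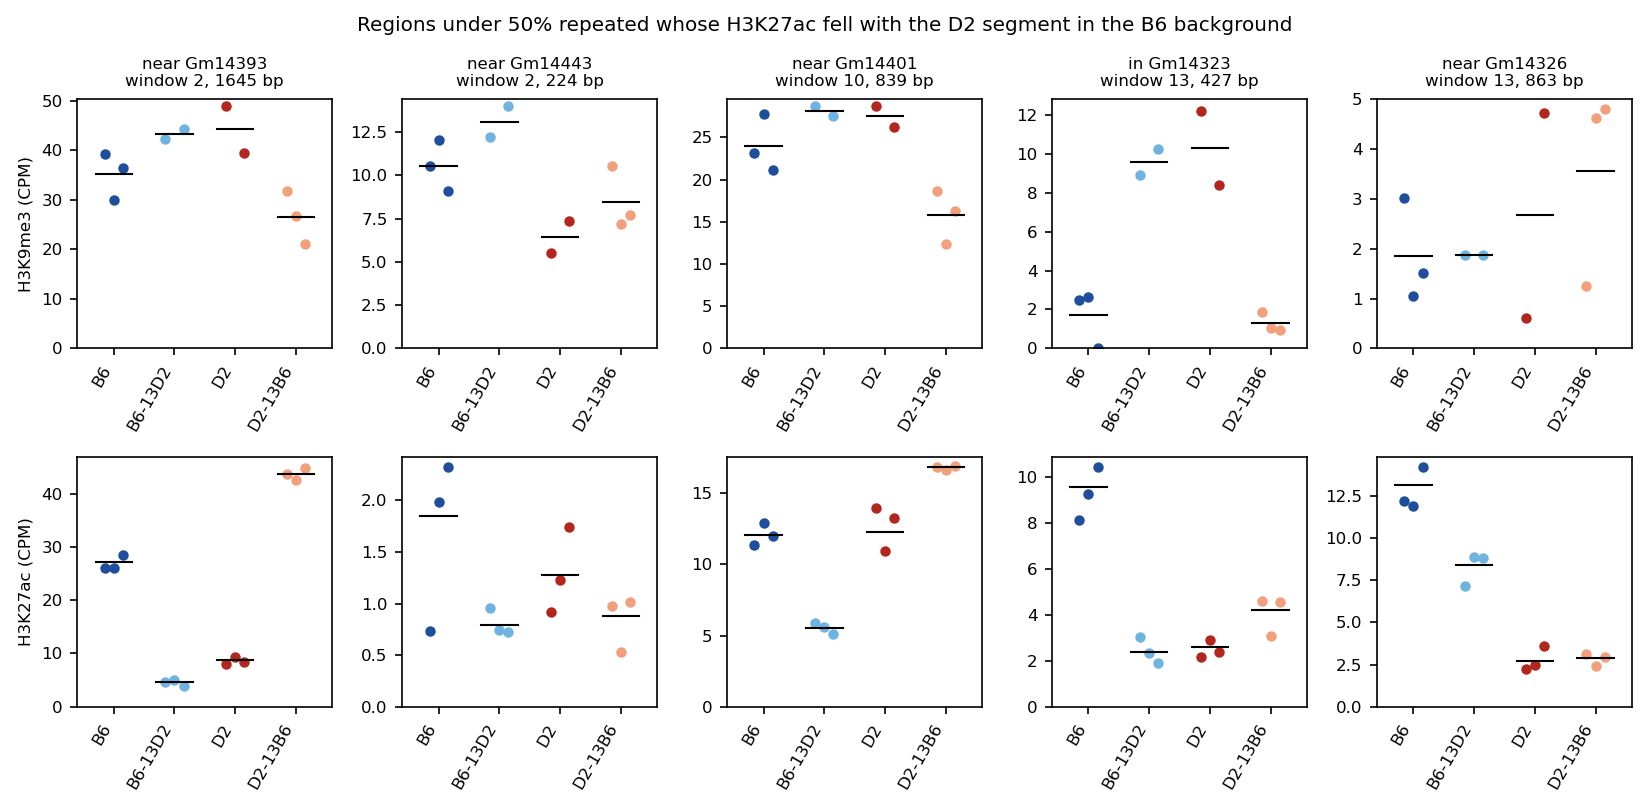
H3K9me3 (top row) and H3K27ac (bottom row), in CPM, in the repeated libraries at the 5 members, of the 9 whose H3K27ac fell with the D2 segment among B6-background lines, with under 50% of their 75-base sequences repeated elsewhere; points are libraries, bars are means. In Gm14323 H3K9me3 is highest in the lines with the D2 segment in each background and H3K27ac is highest in B6, while near Gm14393 H3K27ac is low in both lines with the D2 segment.

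The H3K27ac that followed the segment in both backgrounds lies at chr2:175052869-175054513, between genes and 7036 bp from Gm14393. It was 26.0, 26.0 and 28.5 CPM in B6 and 43.6, 42.6 and 44.8 CPM in D2-13B6, against 4.57, 4.94 and 3.96 CPM in B6-13D2 and 8.06, 9.40 and 8.49 CPM in D2. H3K27ac fell with the D2 segment by 2.58 ± 0.16 between the B6-background lines (adjusted p = 9.18e-17) and by 2.35 ± 0.15 between the D2-background lines (adjusted p = 6.94e-17), and was called so in all 15 alternatives of each. Within either segment type, the D2-background line was higher (0.89 ± 0.11, adjusted p = 1.2e-08). The overlapping region of the separate lines, chr2:175052622-175054433, was at 6.22, 7.11 and 7.21 CPM in B6 and 2.95, 3.20 and 2.71 CPM in D2 (-1.21 ± 0.15, adjusted p = 3.32e-09). H3K9me3 at this member rose with the segment by 0.74 ± 0.21 in the D2 background (adjusted p = 0.0333, lost in 7 of 16 alternatives), from 31.7, 26.8 and 21.1 CPM in D2-13B6 to 48.9 and 39.4 CPM in D2. In the B6 background it was 39.2, 29.8 and 36.3 CPM in B6 and 42.3 and 44.3 CPM in B6-13D2, a value of 0.30 ± 0.20 that was not called (adjusted p = 0.734).

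Smaller values were seen at its copies in the cluster. The member at chr2:177093845-177094683, 6498 bp from Gm14401, matches it over 722 bases at 95.2% identity. There H3K27ac was 11.4, 12.9 and 12 CPM in B6 and 5.91, 5.59 and 5.13 CPM in B6-13D2 (-1.11 ± 0.17, adjusted p = 7.43e-06), and 14.0, 11 and 13.3 CPM in D2 and 16.9, 16.7 and 16.9 CPM in D2-13B6 (-0.45 ± 0.15, adjusted p = 0.0737). The copy at chr2:176982580-176983341 matches another part of it over 573 bases at 91.8% identity. Of this copy's 75-base sequences, 100% are repeated elsewhere in the reference, so its counts may belong to another copy. Its H3K27ac was 16.4, 15.9 and 15.9 CPM in D2-13B6 and 11.3, 10.3 and 10.9 CPM in D2 (-0.60 ± 0.16, adjusted p = 0.0115), and 12.2, 14.2 and 16.5 CPM in B6 against 10.0, 12.4 and 10.4 CPM in B6-13D2 (-0.39 ± 0.16, adjusted p = 0.109). These 2 copies each had a called segment fall and were picked for it. The second had more H3K9me3 in the separate D2 lines (1.35 ± 0.37, adjusted p = 0.00353). The only other member that matches over at least 100 bases at 80% identity or more, chr2:176171042-176171798, was not called in either background (-0.13 ± 0.16, adjusted p = 0.647, and -0.44 ± 0.16, adjusted p = 0.0853).

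Further segment calls included the following, and a few members called in both marks are not reported here. In the B6 background H3K27ac rose at chr2:175072287-175073047 near Gm14393, from 8.10, 7.54 and 6.09 CPM in B6 to 12.4, 13.1 and 14.1 CPM in B6-13D2 (0.89 ± 0.17, adjusted p = 0.000233). It rose at chr2:177779238-177780392 by 0.50 ± 0.17 (adjusted p = 0.0375, lost in 7 of 15 alternatives). It fell at chr2:175165308-175165531 near Gm14443 by 1.08 ± 0.38, at chr2:176907785-176908253 in an intron of Gm14296 by 1.08 ± 0.32, and at chr2:177960731-177961593 near Gm14326 by 0.63 ± 0.17. The first of these falls was between 0.720 and 2.33 CPM in B6 and B6-13D2 and the groups overlapped. In the D2 background H3K27ac rose at chr2:175036258-175036886 near Gm14445 by 0.67 ± 0.20 (adjusted p = 0.0289), from 4.02, 6.05 and 6.79 CPM in D2-13B6 to 8.36, 9.17 and 8.92 CPM in D2, a call lost in 8 of 15 alternatives.

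Set beside other stretches, the chromosome 2 cluster had fewer strain calls than the zinc finger cluster of chromosome 4, where 289 of 401 members tested for H3K9me3 were called in the separate lines, 265 of them lower in D2, with a median log2 fold change of -1.03. By background the chromosome 4 cluster had 290 of 435 members called, 269 of them lower, against 51 of 120 on chromosome 2. With the segment, 4 of 435 chromosome 4 members were called for H3K9me3 between B6-background lines and 3 of 435 between D2-background lines, against 305 and 302 of 316 members within the chromosome 13 stretch. The difference between the stretches was not tested. Summed over all members, the separate lines were at 1467 ± 143 CPM of H3K9me3 in B6 and 1242 ± 223 in D2 (exact two-sided permutation test, p = 0.2), and at 2637 ± 158 and 2438 ± 296 CPM of H3K27ac (p = 0.3, same exact test). With 3 lines against 3 the smallest p possible is 0.1. In the repeated libraries the sum of H3K9me3 was 1265 ± 35.7 CPM in B6, 1347 ± 51.0 in B6-13D2, 864 ± 52.7 in D2 and 867 ± 64.3 in D2-13B6, and that of H3K27ac was 1813 ± 115, 1842 ± 22.7, 1472 ± 57.3 and 1543 ± 101 CPM in the same order.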

How the data were processed

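H3K9me3 and H3K27ac were measured by ChIP-seq. Per the submitters' processing notes the tools were Trimmomatic 0.39, HISAT2 2.2.1, MACS 1.4.2, bedtools 2.9.2 and edgeR, with the mm10 build. The authors deposited counts of reads per region, whole and not normalized, and per the file headers duplicate reads were removed. How reads with several matching places were counted is not given in the sources used here. Of the deposited columns, 2 matched no sample and were not used.

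Counts were fitted with edgeR 4.0.16 (R 4.3.3): TMM scaling, filterByExpr (minimum count 10, minimum total 15), and quasi-likelihood F tests with Benjamini-Hochberg adjustment over all regions of a table, or all 250 kb windows. The threshold for a call was 0.05 on the adjusted p. CPM used TMM library sizes over regions, and window fold changes TMM over windows. Fold changes are log2 with their standard error, and other errors are SD. The script was tested on simulated data. In H3K27ac of the repeated libraries, pairs of 1 line that differed by less than the sampling noise (B6 1 and 2, B6-13D2 1 and 3, D2 1 and 3, D2-13B6 2 and 3) were summed. Repeated libraries are technical replicates, so their p-values measure only the spread between libraries of 1 line. Intervals and floors of 3 counts cover counting error only.

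Members were chosen by position, and lists, windows and tests with earlier results of these data known. Regions named were, for each contrast, the 3 called members with the largest rise and the 3 with the largest fall, the 5 with the most signal, and zinc finger genes; window 11, its members and the copies were picked after their values were seen. A few members that the rule names, with called changes between strains and with the segment in both marks, are not reported here. Alternatives were DESeq2 1.42.0, library totals, other filters, replicate blocks, other windows and each library left out.

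Same-numbered libraries were compared for pairing: correlations of their deviations from group means ran from -0.0653 to 0.164, and only 1 pair of 1 table was over 0.1, so the numbers were not taken to pair libraries.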

Additional observations from a re-analysis of the deposited data

Results flagged for a closer look

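The H3K27ac of chr2:177893032-177893458, in an exon of Gm14323, was picked out because its change with the D2 segment differed between the backgrounds by a test of the difference itself. The change was -1.95 between the B6-background lines and -0.75 between the D2-background lines, an interaction of -1.20 on the log2 scale (edgeR, adjusted p = 0.0236). B6 libraries were at 8.10 to 10.4 CPM, D2-13B6 libraries at 3.08 to 4.61, and the libraries of both lines with the D2 segment at 1.89 to 3.05. Over the alternatives the value ran from -1.39 to -0.996, and 7 of 15 lost the call.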

How the results depend on the processing

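The counts of members called fell with DESeq2 from 29 to 19 for H3K9me3 by strain, from 51 to 27 by background, and in the segment contrasts from 2 to 1 (B6 background) and from 3 to 0 (D2 background). With only regions averaging at least 20 counts, which tests fewer regions, they were 7 by strain, 10 by background and 0 for the segment in the B6 background. For H3K27ac, the 11 members called for the segment in the B6 background became 7 with DESeq2, 20 with library totals, 18 at a mean of at least 20 counts, 38 with all libraries separate and 34 with only the groups of the contrast. The 3 in the D2 background became 1, 7, 9 and 13 with the first 4 of these settings, and the 1 with a difference between the contrasts became 0, 6, 7 and 21. For the 2 last settings of H3K27ac and for DESeq2, the cause was not tested.

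Of the windows called, the 2 for H3K9me3 by strain became 1 in 500 kb windows, and the 2 for H3K27ac became 1 in 500 kb windows and 5 when the windows were shifted. Shifted windows also gave 8 in place of 5 for H3K9me3 and 7 in place of 4 for H3K27ac by background, 1 in place of 2 for H3K27ac with the segment in the B6 background, and 2 in place of 1 for its difference between backgrounds. Library totals gave 6 windows in place of 2 in the B6 background and 2 in place of 0 in the D2 background for H3K27ac. The 4 RefSeq-rule gene starts with an H3K27ac call by strain became 7 within 2 kb and 11 by the GENCODE rule, which was chosen after seeing the data, and H3K9me3 calls became 1 in place of 0 by that rule.

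With 1 library left out, member counts ranged from 21 to 30 (H3K9me3 strain), 79 to 94 (H3K27ac strain), 40 to 53 and 81 to 109 (background), 1 to 3 and 1 to 4 (H3K9me3 segment, B6 and D2 backgrounds), 6 to 35 and 1 to 9 (H3K27ac segment), and 0 to 12 (H3K27ac difference between backgrounds). For H3K9me3 the low counts came without B6-13D2 replicate 2, and without D2 replicate 1 or D2-13B6 replicate 3. For H3K27ac they came without either B6 sample (6), B6-13D2 replicates 1 and 3 (7), or either D2 sample (1), and the high counts without D2-13B6 replicate 1 (27) or replicates 2 and 3 (35 and 9). The lone sample left is then assumed to vary like the other groups. Windows ranged from 2 to 3 and 2 to 5 by strain (5 without D2 replicate 1 or 2), 5 to 7 and 4 to 6 by background, and for H3K27ac 0 to 5 and 0 to 2 with the segment and 0 to 2 for its difference between backgrounds. The summed cluster level differed by -353.5 to -152 CPM in H3K9me3 and by -369 to -92.7 CPM in H3K27ac (D2 minus B6).

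The replicate numbers did not pair the libraries. A fit with the replicate number as a block gave 27 and 89 members by strain, 52 and 116 by background, 2 and 1 for the H3K9me3 segment contrasts, 0 for their difference, and, with all libraries separate, 37, 13 and 20 for the H3K27ac segment contrasts and their difference. Of 37 changes at regions picked by the naming rule, those not reported here included, 28 were called under every alternative run. The call was lost in some alternatives for 9, and none reversed.

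H3K9me3 depth left 132 members untested between separate lines, and copies whose sequence is identical cannot be told apart.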
